A study of Homo sapiens with 12 samples.

Results

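The genes of sterol and fatty acid synthesis were 37 genes chosen by their role: 18 enzymes of sterol synthesis, 9 genes of sterol uptake and control, 2 sterol exporters and 8 genes of fatty acid synthesis. Each was read by the probe set that the probe table gives to that gene alone and that had the highest mean over the 12 arrays of the series. Of the 37 genes, 34 had such a probe set, out of 19775 genes read this way on the arrays. FDFT1 (squalene synthase) had no single-gene probe set in the probe table used here, and CYP51A1 and FADS1 had only probe sets annotated to 2 genes, so none of these 3 was measured. TM7SF2, ABCG1 and FADS2 stayed under a log2 value of 5, the floor used for dim genes, in all 12 arrays and were not tested. This left 31 genes tested, namely 15 of sterol synthesis, 9 of uptake and control, 1 exporter (ABCA1) and 6 of fatty acid synthesis.

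The RNA came from Hs578T and BT-20, which are human breast cancer lines, both grown in medium with fetal calf serum. All cultures received an oligonucleotide at 200 nM with the liposomal transfection reagent DOTAP for 24 h, and no untreated or reagent-only culture was analysed here. M and U were one double-stranded DNA sequence with methylated (M) or unmethylated (U) cytosines at its CpG sites. M and U had 2 arrays each in each line, called set 1 and set 2 and labelled as biological replicates, and the array names of the sets carry different dates. ODN2006, a single-stranded CpG oligonucleotide, and its GpC control had 1 array each in each line, with the date of set 2 but no set number. The titles of all arrays, also those of ODN2006 and its control, carry the name CDH13. The labels do not say how separate the cultures were, so the p-values measure only the spread between these arrays, and each line is a single cell line.

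The values are log2 intensities, so a difference of 1 is a doubling. They compare arrays for 1 gene, not genes with each other. Array medians lay between 3.01 and 3.09, and arrays correlated at 0.985 to 0.998 within a line and at 0.887 to 0.906 between lines. The lines had distinct marker profiles over the 6 arrays of each. Of 8 epithelial markers, CDH1, EPCAM, KRT19, ESRP1, CLDN4 and CLDN7 were under 5 in all Hs578T arrays, while KRT8 (6.45 to 6.92) and KRT18 (12.30 to 12.97) were not. In BT-20 all 8 lay between 9.41 and 15.02. Of 8 mesenchymal markers all lay between 9.82 and 15.34 in Hs578T, and CDH2, SPARC, COL1A2, ZEB1 and TWIST1 were under 5 in BT-20, while FN1 (10.18 to 12.87), COL5A1 (10.27 to 10.56) and VIM (6.84 to 7.13) were not.

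Cells make cholesterol from acetyl-CoA through mevalonate, isoprenoid phosphates, squalene and lanosterol, and make fatty acids from cytosolic acetyl-CoA through malonyl-CoA. The transcription factors encoded by SREBF2 and SREBF1 drive these genes. They are held in the endoplasmic reticulum by SCAP and the INSIG proteins when sterols are plentiful and are released to the nucleus when sterols fall, whereas oxysterols act through the LXR receptors to raise exporters such as ABCA1 and the ubiquitin ligase MYLIP.

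The ODN2006 pair is shown because both are compared below. They have 24 bases each and differ in the order of 2 bases at 4 places, in capitals, which are CG in ODN2006 and GC in the control.
ODN2006: tCGtCGttttgtCGttttgtCGtt
GpC control: tGCtGCttttgtGCttttgtGCtt

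Promoters of 4 of the genes that read higher in the BT-20 ODN arrays are shown because the genes share a known set of regulators. The windows, from RefSeq on GRCh38.p14, span bases -160 to -31 from the start of transcription, on the gene's strand. Capitals mark a match to the sterol regulatory element (searched with 1 base left free, the capitals at the left of the SREBF2 stretch), to CACGTG (E-box) or to CCAAT (NF-Y box, which reads ATTGG on the other strand). The stretches lie at chr22:41832945-41833074 (plus strand, SREBF2), chr7:155297718-155297847 (plus strand, INSIG1), chr5:43313443-43313572 (minus strand, HMGCS1, the one of its 2 windows with more matches) and chr4:165327509-165327638 (plus strand, MSMO1).
SREBF2: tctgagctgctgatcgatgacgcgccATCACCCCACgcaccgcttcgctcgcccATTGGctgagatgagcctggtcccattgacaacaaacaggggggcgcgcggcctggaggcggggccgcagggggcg
INSIG1: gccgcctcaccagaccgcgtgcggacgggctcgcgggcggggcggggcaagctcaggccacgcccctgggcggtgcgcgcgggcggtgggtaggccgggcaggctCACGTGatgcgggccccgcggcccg
HMGCS1: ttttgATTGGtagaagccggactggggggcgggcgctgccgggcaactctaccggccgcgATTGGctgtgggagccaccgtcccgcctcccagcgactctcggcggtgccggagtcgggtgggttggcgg
MSMO1: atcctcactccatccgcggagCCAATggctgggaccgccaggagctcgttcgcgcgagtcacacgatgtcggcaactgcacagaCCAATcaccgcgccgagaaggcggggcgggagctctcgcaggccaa
Over the whole RefSeq windows (from 250 bases before to 50 after the start, all starts of a gene pooled, both strands searched), CCAAT was found in 13 of 15 sterol synthesis genes with a window (86.7%) and in 39.7% of 27305 genes. It was found in 5 of 9 genes of uptake and control and 4 of 7 of fatty acid synthesis. CACGTG was found in 5 of 32 members (15.6%), among them INSIG1 and ABCA1, and in 8.77% of all genes. The sterol regulatory element was found in SREBF2 alone among the members, and in 0.19% of all genes. These motifs are letters in a window and say nothing of binding.

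The first comparison asked how the cell lines differ, over the 8 M and U arrays (4 per line, M and U joined). Control and uptake genes were mostly higher in Hs578T, and so were 4 of 6 genes of the fatty acid group, LPIN1 among them, while FASN was lower. Sterol synthesis enzymes went both ways. Of the 31 genes tested, 15 were higher in Hs578T and 7 lower at an adjusted p under 0.05 (limma, Benjamini-Hochberg over 10410 genes), and 9 did not pass. Over all genes 34.4% were higher and 40.2% lower, 74.6% in all, so a call by itself was common between these lines. In bulk RNA, less RNA per cell and fewer cells with the RNA cannot be told apart. In 22 of the 31 genes the arrays of the lines did not overlap (16 with Hs578T above, 6 below), as in 73.4% of all genes. With set as a block, the arrays of a set sharing a date, 19 members were higher and 9 lower (81% of all genes called). The 22 above were among them, and ACAT2, LSS, SREBF1 and ABCA1 were added as higher and SC5D and ELOVL6 as lower (adjusted p 0.0054 to 0.045). The block takes the difference between the sets of a line out of the error, so these p-values leave out that spread. Of the added genes, LSS (-0.04 and 0.62), SREBF1 (1.01 and -0.25) and ELOVL6 (0.04 and -0.55) changed sign between set 1 and set 2. ACAT2, ABCA1 and SC5D kept theirs.

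**Figure D1:**
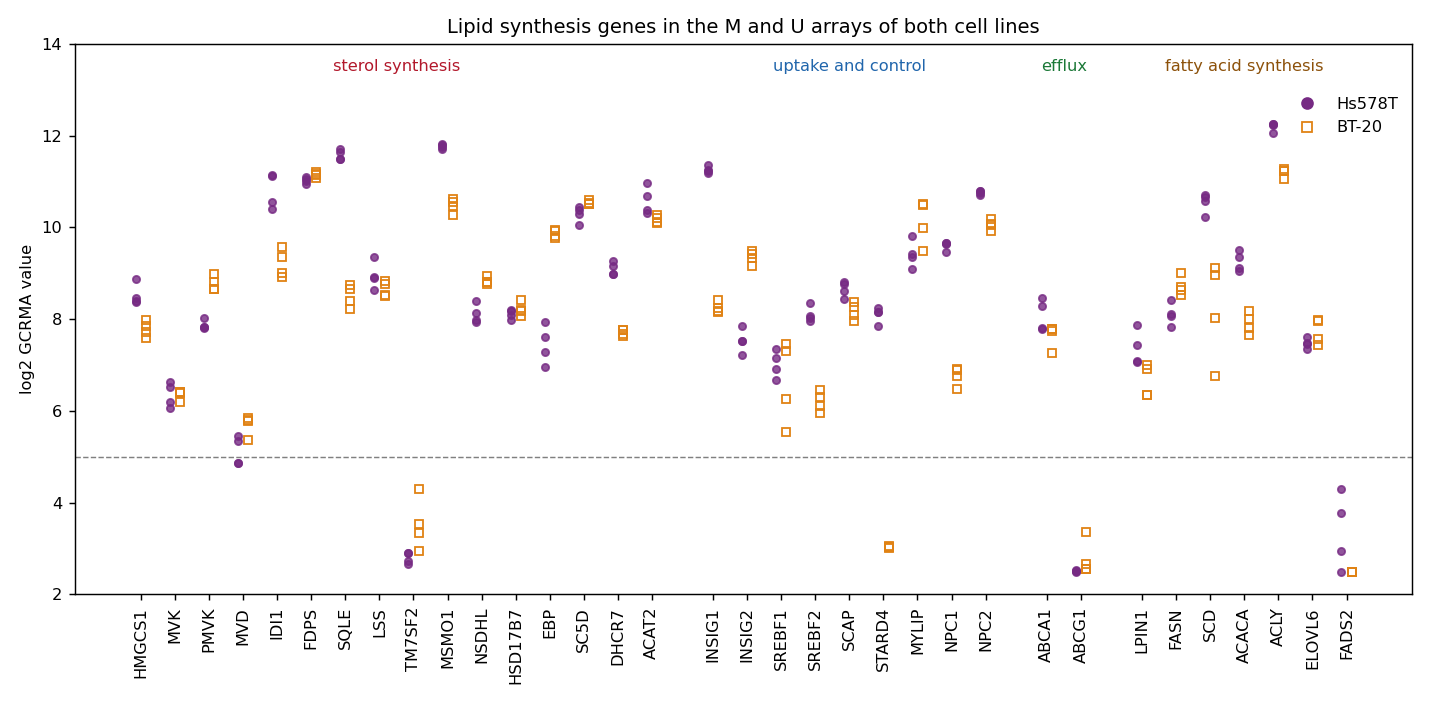
Log2 GCRMA value of each measured gene (x axis, in pathway order within the 4 groups) in the 4 M and U arrays of Hs578T (filled circles) and of BT-20 (open squares). Each point is 1 array and the dashed line is the floor of 5. STARD4 lies above 7 in Hs578T and near 3 in BT-20, and values are comparable between lines for a gene, not between genes.

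Among the genes of uptake and control, 6 of 9 were higher in Hs578T, 2 lower and 1 did not pass, with a median difference of 0.70 against -0.09 over all genes. STARD4, a carrier of sterol between membranes, read 8.16 and 7.86 in the M arrays of Hs578T (set 1 then set 2, here and below), 8.16 and 8.25 in its U arrays, 3.04 and 3.05 in the M arrays of BT-20 and 3.02 and 3.01 in its U arrays. It was thus near background in BT-20, and with values under 5 raised to 5 the difference was at least 3.11 on the log2 scale (adjusted p = 4.5e-08 for the unraised values). INSIG1, which retains SCAP in the endoplasmic reticulum, read 11.25 and 11.37 in the M arrays of Hs578T, 11.19 and 11.22 in its U arrays, 8.17 and 8.15 in the M arrays of BT-20 and 8.42 and 8.24 in its U arrays. All 4 Hs578T arrays lay above all BT-20 arrays, by 3.01 ± 0.09 (SE) on the log2 scale (adjusted p = 3.0e-07). INSIG2, its paralogue, ran the other way, at 7.23 to 7.84 in Hs578T and 9.15 to 9.49 in BT-20 (-1.82 ± 0.12, adjusted p = 1.6e-05).

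NPC1, the membrane protein that moves cholesterol out of lysosomes, was 2.85 ± 0.12 higher in Hs578T (9.47 to 9.67 against 6.47 to 6.91, adjusted p = 1.9e-06). Its soluble partner NPC2 was 0.70 ± 0.09 higher (adjusted p = 0.00033). SREBF2 was 1.90 ± 0.11 higher (7.95 to 8.36 against 5.95 to 6.45, adjusted p = 6.8e-06) and SCAP, the escort of both factors, 0.48 ± 0.14 higher (adjusted p = 0.018). SREBF1 read 6.68 and 6.92 in the M arrays of Hs578T, 7.15 and 7.35 in its U arrays, 5.55 and 7.31 in the M arrays of BT-20 and 6.25 and 7.46 in its U arrays. Its BT-20 arrays split by set, the arrays of the lines overlapped, and the difference of 0.38 ± 0.43 did not pass (adjusted p = 0.44, and 0.024 with set as a block). MYLIP was 0.70 lower in Hs578T (adjusted p = 0.042) with overlapping arrays. That call was lost in 5 of 8 fits that left out 1 array, on omission of the Hs578T M or U array of set 1, the Hs578T U array of set 2, or the BT-20 M or U array of set 2 (differences from -0.78 to -0.45, adjusted p 0.063 to 0.13).

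In sterol synthesis 5 of 15 genes were higher in Hs578T, 4 lower and 6 did not pass, with a median of 0.00. SQLE, which oxidises squalene, read 11.49 and 11.65 in the M arrays of Hs578T, 11.49 and 11.70 in its U arrays, 8.75 and 8.21 in the M arrays of BT-20 and 8.65 and 8.39 in its U arrays. The lines did not overlap and differed by 3.08 ± 0.15 (adjusted p = 3.3e-06). IDI1, which isomerises isopentenyl diphosphate, was 1.58 ± 0.24 higher (adjusted p = 0.00087), DHCR7, which makes cholesterol from 7-dehydrocholesterol, 1.39 ± 0.09 higher (adjusted p = 1.2e-05), MSMO1, a C4-methylsterol oxidase, 1.29 ± 0.11 higher (adjusted p = 4.3e-05) and HMGCS1, the synthase of HMG-CoA, 0.74 ± 0.14 higher (adjusted p = 0.0023). IDI1 and HSD17B7 are read by probe sets of a type that can bind other transcripts, so their values are less certain.

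The 4 sterol synthesis genes lower in Hs578T were EBP, PMVK, NSDHL and MVD. EBP, a sterol isomerase, read 6.95 and 7.93 in the M arrays of Hs578T, 7.27 and 7.61 in its U arrays, 9.82 and 9.94 in the M arrays of BT-20 and 9.93 and 9.77 in its U arrays. Its lines did not overlap and differed by -2.43 ± 0.22 (adjusted p = 6.7e-05). PMVK, which phosphorylates mevalonate phosphate, differed by -0.91 ± 0.11 (adjusted p = 0.00030), NSDHL, a sterol dehydrogenase, by -0.72 ± 0.13 (adjusted p = 0.0018) and MVD, mevalonate diphosphate decarboxylase, by -0.57 ± 0.12 (adjusted p = 0.0037, arrays overlapping, both Hs578T M arrays under 5). For ACAT2, MVK, FDPS, LSS, HSD17B7 and SC5D the 95% intervals of the difference, without the block, lay between -0.52 and 0.80.

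In fatty acid synthesis 4 of 6 genes were higher in Hs578T, 1 lower and 1 did not pass, with a median of 0.86. SCD, which makes monounsaturated fatty acids, read 10.57 and 10.22 in the M arrays of Hs578T, 10.71 and 10.66 in its U arrays, 6.76 and 9.11 in the M arrays of BT-20 and 8.03 and 8.96 in its U arrays. The lines did not overlap (2.32 ± 0.50, adjusted p = 0.0048), but the BT-20 values of set 1 were below those of set 2, and the difference was 3.25 within set 1 and 1.40 within set 2. ACACA, which makes malonyl-CoA, was 1.34 ± 0.13 higher (adjusted p = 9.8e-05) and ACLY, which supplies cytosolic acetyl-CoA, 1.00 ± 0.09 higher (adjusted p = 8.1e-05). LPIN1, a phosphatidate phosphatase of glyceride synthesis rather than a fatty acid enzyme, was 0.72 ± 0.20 higher (adjusted p = 0.016). FASN, the synthase itself, differed by -0.60 ± 0.13 (adjusted p = 0.0044), and ELOVL6, an elongase, differed by -0.26 ± 0.16 (adjusted p = 0.19). The exporter ABCA1 differed by 0.44 ± 0.20 (adjusted p = 0.090).

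**Figure D2:**
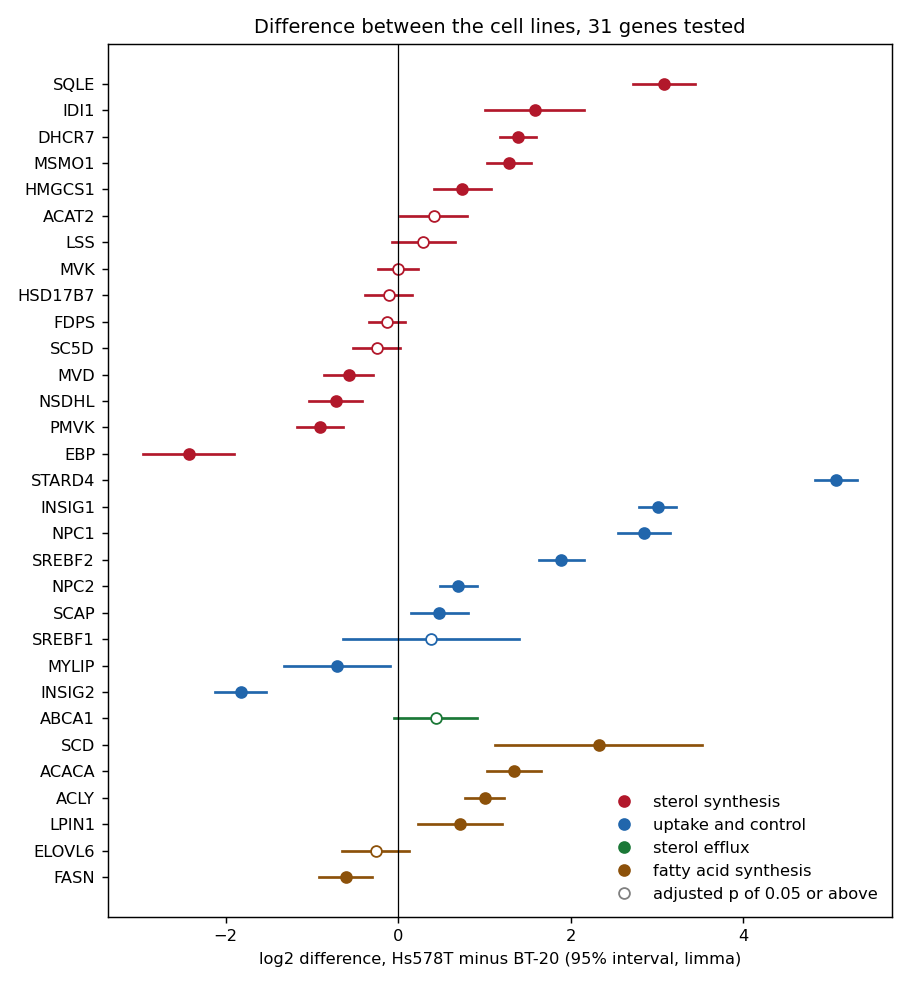
Log2 difference, Hs578T minus BT-20, of the 31 genes tested, with 95% intervals from limma (4 arrays per line). Filled points have an adjusted p under 0.05, and the sterol synthesis genes spread from -2.43 (EBP) to 3.08 (SQLE). The STARD4 point rests on BT-20 values under the floor of 5.

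Within set 1 and within set 2, 27 of the 31 genes kept 1 sign (17 higher and 10 lower in Hs578T in both sets), against 42.9% and 49.5% of all genes. The signs of MVK, LSS, SREBF1 and ELOVL6 differed between sets. Other probe sets of the same genes with a mean of at least 5, 25 of them for 16 genes, all had the sign of the probe set used. The calls depended on the scale: centring each array on the median of 8 housekeeping genes moved the median of all genes from -0.09 to 0.73 and the calls over all genes from 3580 higher and 4189 lower to 6480 and 1855. On that scale 24 members were higher and 2 lower, and PMVK (-0.10), NSDHL (0.09), MYLIP (0.11), FASN (0.21) and MVD (0.24) did not pass, the last 4 with their sign turned. Of the 8, 4 themselves did not overlap between lines over all arrays. HPRT1 (10.38 to 10.69 in Hs578T and 12.33 to 12.56 in BT-20), SDHA (10.37 to 10.93 and 11.09 to 11.42) and GUSB (8.69 to 9.19 and 9.20 to 9.81) were lower in Hs578T, and YWHAZ (13.96 to 14.20 and 13.67 to 13.86) higher.

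Other genes of the pathways, 40 by name, of which 25 were tested, split 7 higher and 12 lower in Hs578T. FABP5, a fatty acid binding protein, was at a mean of 12.07 in Hs578T and 2.69 in BT-20, and PLIN2, which coats lipid droplets, at 2.73 and 8.67, so each was near background in 1 line. The elongase ELOVL5 was 2.04 higher (adjusted p = 4.3e-06). ACSL1, an acyl-CoA synthetase, was -1.36 (adjusted p = 6.2e-05) and ACSS2, an acetyl-CoA synthetase, -1.90 (adjusted p = 0.00048). RNF139, a ubiquitin ligase of the endoplasmic reticulum, was 2.02 higher (adjusted p = 6.5e-05).

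The second comparison, the one the design names, was M against U within each line. None of the 31 genes passed in either line, over both lines or in the difference between lines, and neither did any of the 10410 genes (limma). At an unadjusted p under 0.05 there were 2 members in Hs578T and 0 in BT-20, against 6.53% and 1.67% of all genes, 3 over both lines (5.22%) and 0 in the difference between lines (2.48%). With set as a block, which fits the shared date of M and U in a set, 7 members of Hs578T (14.1% of all genes) and 1 of BT-20 (4.88%) were under 0.05, all lower in M, and still none passed after adjustment. In Hs578T these were LPIN1 (unadjusted p = 0.0087), MVD (0.0095), MVK (0.010), LSS (0.024), ACACA (0.028), INSIG2 (0.035) and SREBF1 (0.036), with adjusted p values of 0.27 to 0.33 in limma, and in BT-20 SREBF1 (unadjusted p = 0.042, adjusted p = 1.00). The 2 without the block were enzymes of the mevalonate pathway. MVK, mevalonate kinase, read 6.06 and 6.20 in the M arrays of Hs578T, 6.51 and 6.63 in its U arrays, 6.20 and 6.42 in the M arrays of BT-20 and 6.39 and 6.40 in its U arrays. The M array was the lower one in both sets of Hs578T, by 0.45 ± 0.14 on average (unadjusted p = 0.016, adjusted p = 0.68). MVD read 4.86 and 4.87 in M, both under the floor of 5, and 5.34 and 5.44 in U. Its difference was -0.53 ± 0.17 (unadjusted p = 0.016, adjusted p = 0.68) and -0.39 with values under 5 raised to 5. In BT-20 the smallest unadjusted p was that of SREBF2 (limma, -0.36 ± 0.15, unadjusted p = 0.052, adjusted p = 1.00), with M at 5.95 and 6.10 and U at 6.45 and 6.31 (set 1 then set 2).

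The median difference was -0.04 for sterol synthesis in Hs578T and -0.03 in BT-20, and -0.30 and -0.11 for fatty acid synthesis, against -0.012 and -0.003 over all genes. Leaving out 1 array at a time moved the sterol synthesis medians between -0.13 and 0.03 in Hs578T and between -0.044 and 0.042 in BT-20, and those of fatty acid synthesis between -0.40 and -0.16 and between -0.33 and 0.044, so only the fatty acid median of Hs578T kept its sign. On the housekeeping scale both sterol synthesis medians turned (0.04 and 0.03). In each line 14 of 31 members were lower in M in both sets, as were 35.9% of all genes in Hs578T and 25.6% in BT-20. Next to MVK and MVD in Hs578T stood LPIN1, with 7.08 and 7.07 in M and 7.44 and 7.87 in U (-0.58 ± 0.29, adjusted p = 0.79). Among the other pathway genes 0 of 25 passed in either line.

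The third comparison was ODN2006 against its GpC control. With 1 array of each per line, the test used the spread of the replicated M and U groups and assumed that the lone arrays vary like them. None of the 31 genes passed in the test over both lines (1 of 10543 genes did, 0.00948%, and it was higher), and none in the test of the difference between lines (0 genes). Nearly all members read lower with ODN2006, with 29 of 31 differences below 0 and a median of -0.26, where 35.1% of all genes were above 0 and the median was -0.06. All 15 sterol synthesis genes were below 0 (median -0.27). On the housekeeping scale, which moved the median of all genes to 0.088, 12 of the 15 were below 0 (median -0.12) and 21 of the 31 members. At an unadjusted p under 0.05, 7 members were lower and 0 higher, against 3.36% and 1.29% of all genes. They were HMGCS1 (-0.66 ± 0.19), MVD (-0.56), INSIG1 (-0.51 ± 0.13), SREBF2 (-0.48), MSMO1 (-0.39) and MVK (-0.36), with adjusted p values of 0.94 or more, and STARD4 (-0.76 ± 0.14, adjusted p = 0.73). Both BT-20 values of STARD4 were under 5, and with values raised to 5 its difference was -0.33 (adjusted p = 0.955). With set as a block 14 members were lower at an unadjusted p under 0.05 (8.03% of all genes) and none passed after adjustment. The ODN arrays carry no set number, so the block left their differences unchanged. It only took the spread between the M and U sets out of the error.

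The values by line were not alike, although the test of the difference between lines called no gene. In Hs578T 14 of 15 sterol synthesis genes were lower with ODN2006 (median -0.57, 62% of all genes lower), 9 of them by more than 0.5, as were 8.69% of all genes. In BT-20 9 of 15 were lower (median -0.05, 58.2% of all genes lower) and 0 by more than 0.5 (5.02% of all genes). For HMGCS1 the Hs578T arrays gave 8.78 (ODN2006) and 9.87 (control), and the BT-20 arrays 8.58 and 8.81. For DHCR7 they gave 9.49 and 10.06, and 9.03 and 9.01. INSIG1 was lower in both lines, at 11.63 against 12.18 (Hs578T) and 9.95 against 10.43 (BT-20). SREBF1 had the largest difference of the tested members in Hs578T, 5.58 with ODN2006 and 6.92 with the control, while BT-20 read 7.70 and 7.96. The test of the difference between lines gave -0.44 as the median over sterol synthesis, with 1 member at an unadjusted p under 0.05, MVD (-0.91 ± 0.33), and 2.93% of all genes.

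**Figure D3:**
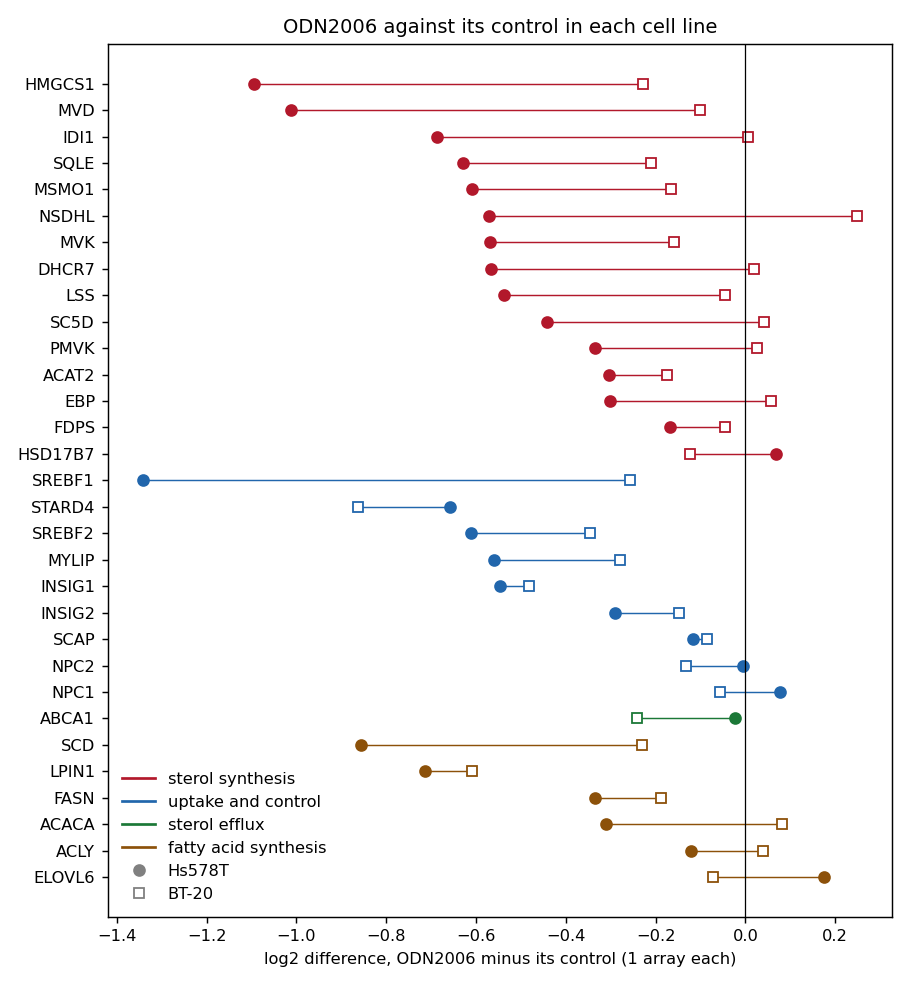
Log2 difference between ODN2006 and its control for the 31 genes, with Hs578T as filled circles and BT-20 as open squares joined by a line for each gene (1 array per point, no error). In Hs578T 14 of 15 sterol synthesis genes lie below 0, and in BT-20 9 of 15.

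Other probe sets of the same genes had the sign of the one used in 23 of 25 cases in Hs578T and in 16 of 25 in BT-20, where the differences were small.

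The last comparison set the 2 ODN arrays of each line against its M and U arrays of set 2, which carry the same array date. It joins ODN2006 with its control and M with U, and it uses the ODN arrays and some of the M and U arrays of the comparisons above. The oligonucleotides differ in sequence, strandedness and chemistry, and the ODN arrays carry no set number, so culture and oligonucleotide cannot be told apart. In BT-20 the cholesterol genes read higher and ABCA1 lower with the ODNs, but 0 of 10375 genes passed, members included (limma, with 2.94% of genes higher and 2.21% lower at an unadjusted p under 0.05). All 15 sterol synthesis genes were above 0 (49.2% of all genes were), with a median of 0.59 against -0.002. At an unadjusted p under 0.05, 11 of the 15 were higher and 0 lower. In 14 of the 15 both ODN arrays were above all 4 M and U arrays of the line, sets 1 and 2 together, as in 11.7% of all genes.

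The control gene INSIG1 read 9.95 and 10.43 in the BT-20 arrays of ODN2006 and its control, and 8.15 to 8.42 in the 4 M and U arrays, so the ODN arrays stood well apart (2.00 ± 0.22, unadjusted p = 5.7e-05, adjusted p = 0.15). DHCR7 read 9.03 and 9.01 against 7.63 to 7.77 (1.25 ± 0.20, adjusted p = 0.31). MSMO1 read 11.55 and 11.71 against 10.28 to 10.62 (1.25 ± 0.20, adjusted p = 0.31). In all 3 genes no M or U array reached the ODN arrays.

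IDI1 (1.06 ± 0.22), HMGCS1 (1.04 ± 0.34) and SQLE (0.96 ± 0.21) had differences of like size, with adjusted p values of 0.38 to 0.81. In fatty acid synthesis SCD read 10.15 and 10.38 against 9.11 and 8.96 in set 2 and 6.76 and 8.03 in set 1 (1.23 ± 0.29 against set 2, adjusted p = 0.55), and LPIN1 differed by 1.19 ± 0.35 (adjusted p = 0.75). ABCA1, the exporter of cholesterol to lipid-poor apolipoproteins, read 6.53 and 6.77 with the ODNs and 7.26 to 7.79 in the M and U arrays (-1.11 ± 0.11, unadjusted p = 3.4e-05, adjusted p = 0.13). It was the 1 tested member whose ODN arrays both lay below all 4 M and U arrays (12.7% of all genes). STARD4 stayed under 5 in both ODN arrays (3.50 and 4.36). Of the 9 genes of uptake and control 7 were above 0 (median 0.34), and of 6 fatty acid genes 5 (median 0.36). STARD4 was among the 7, although it was tested only because its Hs578T arrays passed the floor. With values under 5 raised to 5, 6 of the 9 were above 0 (median 0.19).

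**Figure D4:**
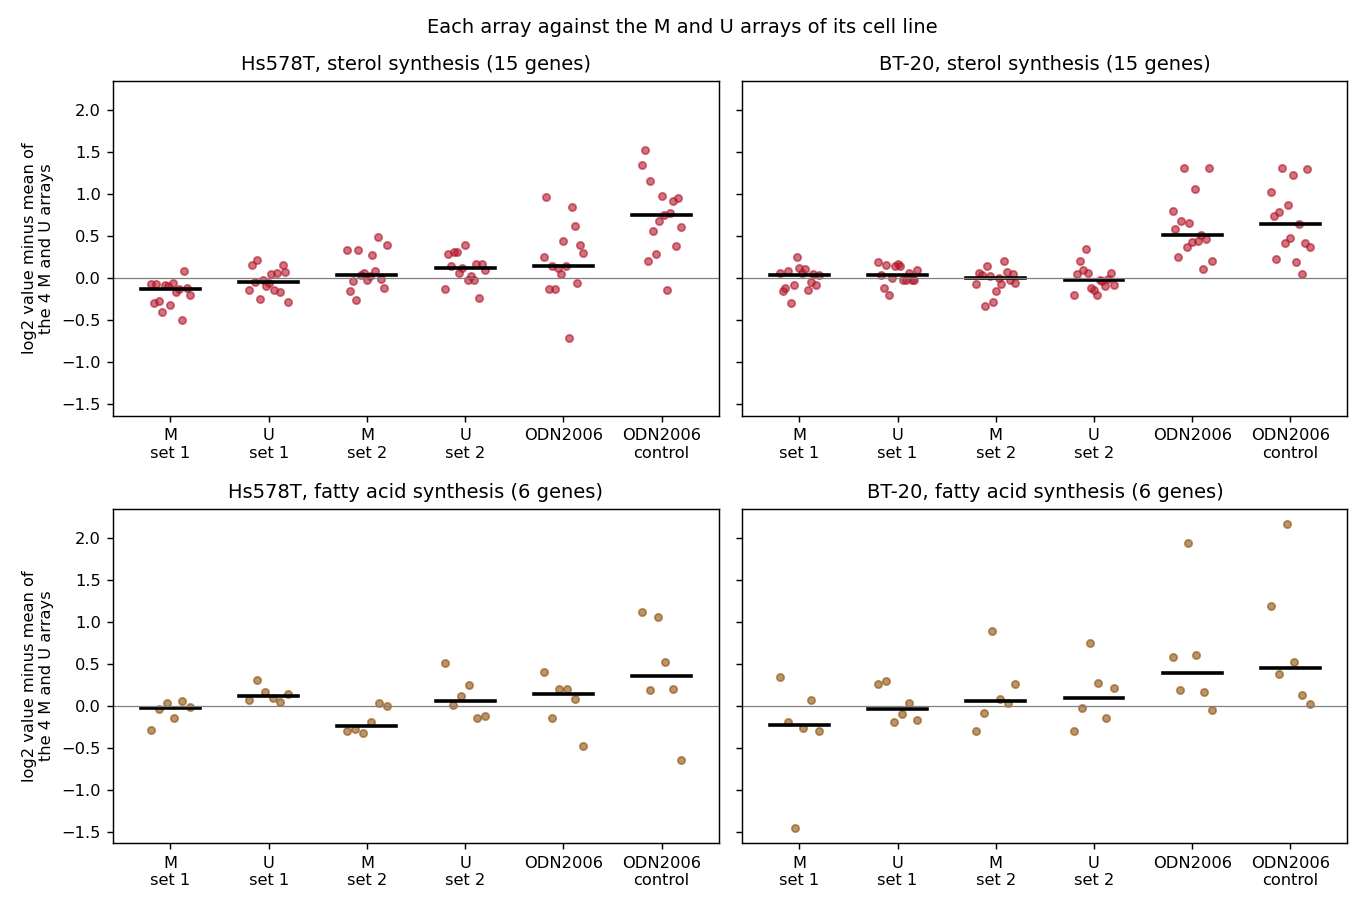
Log2 value minus the mean of the 4 M and U arrays of the same line, for the 15 sterol synthesis genes (top) and the 6 fatty acid synthesis genes (bottom), by array. Points are genes and the bar is their median, which for sterol synthesis is 0.52 and 0.64 in the BT-20 ODN2006 and control arrays and 0.14 and 0.75 in those of Hs578T.

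In Hs578T 4 of 31 members passed, 2 higher and 2 lower with the ODNs, where 3.87% of 10375 genes were higher and 5.16% lower. These background calls, 402 higher and 535 lower, moved with single arrays, and each such fit left 1 array in a group. They fell well below these counts without the Hs578T ODN2006 array, the Hs578T M array of set 2 or any 1 BT-20 array. Without the Hs578T U array of set 2 both counts rose. Without the Hs578T control array the higher calls fell and the lower calls rose slightly. MVK read 7.31 with ODN2006 and 7.88 with the control, above its 4 M and U arrays (6.06 to 6.63), a difference of 1.18 ± 0.22 against set 2 (adjusted p = 0.031). HSD17B7, a sterol ketoreductase, read 8.95 and 8.88 against 7.98 to 8.20 (0.78 ± 0.12, adjusted p = 0.021). MYLIP read 8.24 and 8.80 against 9.09 to 9.82 (-1.10 ± 0.22, adjusted p = 0.035), and ELOVL6 7.01 and 6.83 against 7.36 to 7.61 (-0.50 ± 0.11, adjusted p = 0.044). In each of the 4 both ODN arrays lay outside the range of the M and U arrays, but the 4 had been picked on these same arrays. Both ODN arrays lay above that range in 13.8% of all genes and below it in 25.3%.

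These 4 calls were not stable. Without the Hs578T M array of set 2 or the Hs578T ODN2006 array none of them passed, nor without any 1 of the 4 BT-20 arrays, where the Hs578T differences were the same and the adjusted p was 0.050 to 0.096. Without the Hs578T control array MVK (0.89, adjusted p = 0.056) and ELOVL6 (-0.41, adjusted p = 0.10) did not pass. With no filter on dim genes MVK and MYLIP did not pass. ELOVL6 failed on the housekeeping scale (-0.38, adjusted p = 0.18), where the calls over all genes turned from 402 higher and 535 lower to 518 and 203. Of 4 other MYLIP probe sets with a mean of at least 5, 3 were lower (-1.35 to -1.19) and 1 was higher (0.29). The other MVK probe set past that mean (5.17, close to the floor) was higher by only 0.59. That of ELOVL6 differed by -0.68.

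The sterol synthesis genes of Hs578T were 12 of 15 above 0 (42.9% of all genes), with a median of 0.44 against -0.06, and 5 were higher and 1 lower at an unadjusted p under 0.05 (11.6% and 17.8% of all genes). The median rested on the control array, being 0.11 without it and 0.59 without the ODN2006 array. Taken one by one, the Hs578T control array was above all 4 M and U arrays in 14 of 15 sterol synthesis genes (22.7% of all genes) and the ODN2006 array in 7 (20%). The Hs578T ODN2006 array was below all 4 in 2 of the 15 (40.7% of all genes) and its control in 0 (32.5%). In BT-20 0 of the 15 were below in either array (28.4% and 23.1% of all genes). There the ODN2006 array was above in 15 of 15 (19%) and the control array in 14 (23%). HMGCS1 shows it, with 8.78 for ODN2006 in Hs578T inside the 8.38 to 8.87 of M and U and 9.87 for the control above it, whereas in BT-20 both (8.58 and 8.81) were above the 7.59 to 7.98 of M and U.

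**Figure D5:**
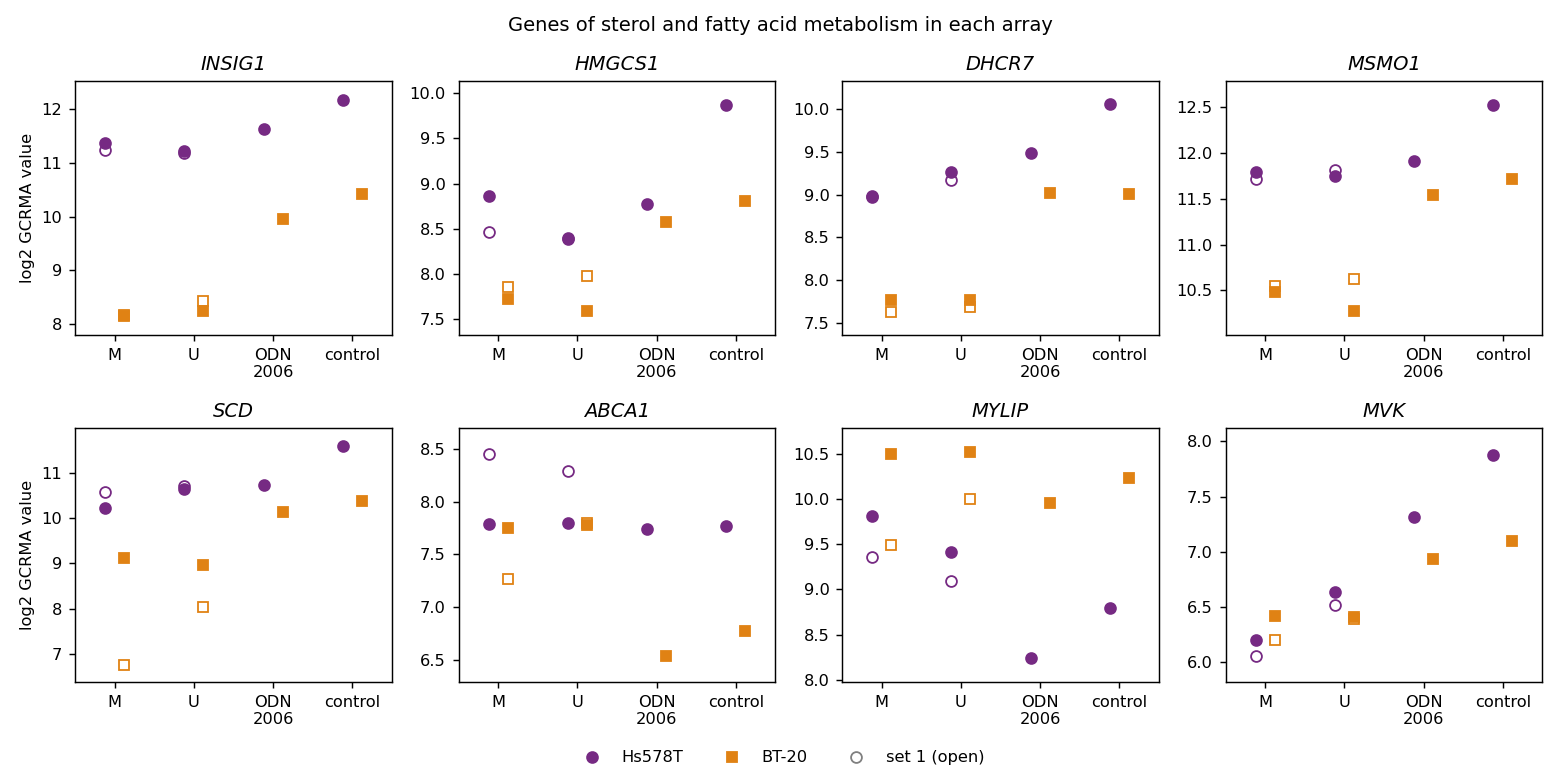
Log2 GCRMA values of 8 genes in each array of Hs578T (circles) and BT-20 (squares), by oligonucleotide, with set 1 as open symbols. INSIG1, DHCR7 and MSMO1 of BT-20 read higher in both ODN arrays than in all M and U arrays, and ABCA1 of BT-20 lower. The y axes differ between panels and do not start at 0.

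The test of the difference between the lines called 0 members (28 of 10375 genes, 0.27%). The smallest p values were those of ABCA1, at -1.11 in BT-20 and -0.04 in Hs578T (difference between lines 1.07 ± 0.16, adjusted p = 0.071), and INSIG1, at 2.00 in BT-20 and 0.61 in Hs578T (-1.39 ± 0.32, adjusted p = 0.15). Next were IDI1 (-1.17 ± 0.31, adjusted p = 0.18) and NSDHL (-0.94 ± 0.29, adjusted p = 0.22). The members just named are not shown to respond differently in the lines. Other probe sets had the sign of the one used in 24 of 25 cases in each line. For ABCA1 the size differed, as another probe set (mean 6.71) was lower in both lines, by -0.73 in Hs578T and -1.22 in BT-20. Of the 25 other pathway genes tested, ACSS2 was higher with the ODNs in Hs578T (limma, 1.14, adjusted p = 0.029). FABP5 (-0.53, adjusted p = 0.043) and STARD3, a sterol transporter of endosomes (-0.66, adjusted p = 0.043), were lower there, with a median of -0.20 over the 25. These calls come from the same Hs578T fit, whose calls over all genes moved with single arrays. STARD3 was also dim, with a mean of 5.32 over the Hs578T M and U arrays of both sets. In BT-20 0 of 25 passed (median 0.05).

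The sets themselves differed in some of these genes. From set 1 to set 2 of Hs578T, IDI1 was higher by 0.65 ± 0.12 (10.39 and 10.55 against 11.14 and 11.12, adjusted p = 0.042), the 1 member called, where 0.682% of all genes were higher and 2.06% lower, and 14 of 15 sterol synthesis genes were above 0 (42.2% of all genes, median 0.13). On the housekeeping scale 8 of the 15 were above 0 (median 0.01) and IDI1 did not pass. In BT-20 SREBF1 was higher by 1.49 ± 0.28 (5.55 and 6.25 against 7.31 and 7.46, adjusted p = 0.046), the 1 member called (0.663% higher and 1.83% lower over all genes). SCD was 1.64 ± 0.38 higher (adjusted p = 0.075). Both calls were lost in most fits that left out 1 array: IDI1 in all 8 (adjusted p 0.068 to 0.23) and SREBF1 in 7 of 8, all but the one without the BT-20 U array of set 1 (adjusted p 0.053 to 0.23). The sterol synthesis genes of BT-20 were 6 of 15 above 0 between the sets (median -0.03), while SREBF1 and SCD moved by more than 1.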

How the data were processed

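RNA of 12 cultures was hybridised to Affymetrix HG-U133 Plus 2.0 arrays. The values are log2 intensities made by the authors with GCRMA (background correction, quantile normalisation and probe set summary) in R 2.4, as the submitters' processing notes give it. Whether all 12 arrays were normalised together is not given in the sources used here. Of 54675 probe sets, 41097 had 1 gene in the probe table, 1801 several and 11777 none, and 41043 symbols were updated through RefSeq GRCh38.p14. Each gene took its single-gene probe set with the highest mean, giving 19775 genes, of which those at 5 or above in at least 2 arrays of a fit were tested.

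Differences were fitted in limma 3.58.1 (R 4.3.3) over all genes, with Benjamini-Hochberg adjustment and a threshold of 0.05. ± gives the standard error. The comparisons between lines, between M and U and between sets used the 8 M and U arrays, ODN2006 against its control all 12, and the ODN arrays against M and U the 8 arrays of set 2 and the ODNs. Scripts were tested on simulated data. The number of arrays limits the precision. Same-numbered M and U arrays deviated together within a line (r = 0.599 in Hs578T and 0.595 in BT-20 over 10410 genes) and less between lines (0.0984 to 0.131), and the array names give each set its own date, so the set within a line was taken as a pairing and fitted as a block beside the fits without it. No deposited column was left without a sample.

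The members and lists were chosen with earlier results of these data known, and no p-value was computed over a list. Any member could be named. Full statistics went to members past the threshold, at most 10 in each direction by size, and where fewer than 3 passed, to the 5 of lowest p on each side. Those named of the 40 other pathway genes passed the same threshold, but between the lines not all that passed are named. ACSS2 is described there although SLC25A1 (log2 difference 1.17), LIPA (-1.37) and HACD3 (-0.97) had lower p values. Alternatives were no filter on dim genes, limma's trend and robust options, centring on 8 housekeeping genes, the mean of all probe sets of a gene, values under 5 raised to 5, the replicate block, and leaving out each array.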

Additional observations from a re-analysis of the deposited data

How the results depend on the processing

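Between the lines, housekeeping centring gave 24 members higher and 2 lower, with medians of 0.81 for sterol and 1.67 for fatty acid synthesis, and turned NSDHL (0.086), MYLIP (0.11), FASN (0.21) and MVD (0.24). It moved the median of all genes from -0.05 to -0.17 between the sets of Hs578T, with calls of 60 higher and 454 lower against 71 and 214. Arrays of a set share a date and were treated as paired within a line. With the replicate block, 19 members were higher and 9 lower between lines against 15 and 7, and 0 passed for M against U or for ODN2006 against its control. Between lines, and for ODN2006 against its control, the block leaves the spread between the sets of a line out of the error.

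For the ODN arrays of Hs578T, members called higher numbered 1 with no filter, and lower 1 with no filter, with trend and robust, with housekeeping centring and with the mean of probe sets. With values under 5 raised to 5, 1 member passed as higher in the difference between lines, ABCA1 on the probe set used. For the sets of Hs578T, 0 members were higher with no filter, housekeeping centring or the mean of probe sets. For those of BT-20, 0 were higher with no filter and 2 with trend and robust, and 1 was lower with the mean of probe sets. In the difference between lines HMGCS1 (M against U) became -0.041 with the mean of probe sets, and STARD4 (ODN2006 against control) -0.66 with values raised to 5. The cause was not tested in any of these.

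Leaving out 1 array at a time, members called between the lines numbered 13 to 16 higher and 6 to 8 lower. For the ODN arrays of Hs578T they numbered 0 to 2 higher and 0 to 3 lower, with a sterol synthesis median of 0.11 (without the control array) to 0.59 (without the ODN2006 array), and in the difference between lines 0 to 1 lower, the 1 being IDI1 (without the Hs578T control array). Between sets 0 to 1 were higher in Hs578T and 0 to 2 in BT-20. Signs of small, uncalled differences turned: for M against U, ACAT2 (-0.11 to 0.49) and ACLY (-0.0023 to 0.19) in Hs578T, MSMO1 (-0.11 to 0.24), HSD17B7 (-0.12 to 0.23) and NSDHL (-0.043 to 0.13) in BT-20, NSDHL (-0.035 to 0.19) and ACAT2 (-0.064 to 0.23) over both lines, and ACAT2 (-0.091 to 0.50) in the difference between lines. For the ODN arrays, that of SCAP between lines ran from -0.029 to 0.14.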
